A study of Mus musculus with 6 samples.

Results

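The genes described here are 10 genes of lipid droplet proteins, lipases and lipase regulators. Among them are the perilipins Plin2, Plin4 and Plin5 and the CIDE genes Cidea, Cideb and Cidec. The others are the lipases Pnpla2 and Pnpla3, the lipase activator Abhd5 and the lipase inhibitor G0s2. All 10 were taken by name with no threshold on a measured value, and they are 10 of the 56691 genes in the deposited table. Liver RNA of 3 KPF and 3 WPF dams was sequenced. KPF dams were hChrebp-KO mice, which carried the floxed Chrebp allele on both chromosomes and Alb-Cre, a Cre recombinase driven by the albumin promoter that is active in hepatocytes. WPF dams carried the same floxed allele without Cre, and the sample labels give their genotype as WT. The mice were on the C57BL/6J background, and the age of the dams was not given in the sources used here. Both groups were pregnant and received a high-fructose diet (HFrD) from mating until their livers were taken in late gestation, so that the groups differ in the Cre transgene and the deletion it makes, and no animal on normal chow enters the comparison.

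Triglyceride in hepatocytes is stored in lipid droplets, whose surface is covered by coat proteins, among them the perilipins, and whose fusion and growth involve the CIDE proteins. The stored triglyceride is released by adipose triglyceride lipase (ATGL, the product of Pnpla2), which CGI-58 (the product of Abhd5) activates and G0S2 inhibits. PNPLA3 is a related droplet protein known for a human variant that predisposes to fatty liver, and ChREBP is a transcription factor that responds to sugar and induces genes of glycolysis and fatty acid synthesis.

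Levels are given as TMM-scaled FPKM (reads per kilobase of exonic length, divided by a library size that edgeR's TMM factors adjust), so that both genes and libraries can be compared. The libraries held between 10694496 and 14496630 counted reads, and TMM factors lay between 0.888 and 1.18. Mlxipl, the gene of ChREBP, was at 32.8, 128 and 155 in KPF replicates 1, 2 and 3 and at 176, 231 and 161 in WPF replicates 2, 3 and 4, so that the groups did not overlap, as was so for 15.7% of all tested genes. Its log2 fold change (KPF minus WPF) was -0.84 (SE 0.53), and edgeR's quasi-likelihood test gave an adjusted p of 0.584. The deleted region is exon 2, and the count covers the whole gene, the part left in place included. All 8 hepatocyte markers had reads in every library. KPF replicate 2 stood apart by skeletal muscle transcripts, with a sum over 6 markers of 2025 against 3.59 to 7.55 in the other 5 libraries. KPF replicates 1 and 2 held more adipocyte transcripts, with sums over 8 markers of 18.0 and 37.0, against 7.71 in KPF replicate 3 and 3.88 to 5.22 in WPF. Of these markers Lep was at 0 in every library. The complement factor gene Cfd had 44, 195 and 13 reads in KPF against 0, 2 and 0 in WPF. Adipoq had 3, 14 and 0 reads in KPF against 0, 3 and 0 in WPF. Retn had 4, 43 and 8 reads in KPF against 0, 1 and 0 in WPF. The largest parts of the sum in KPF replicate 1 were Fabp4 (7.83), Lipe (4.87) and Cfd (4.61), and Lipe is also a hydrolase described below. WPF replicate 4 stood apart by its lipogenic genes, with a sum over 9 genes of 283, against 2276 and 3138 in WPF replicates 2 and 3 and 111 to 224 in KPF.

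The main difference was in Pnpla3, which was 16.6-fold higher in WPF than in KPF, and Abhd5, 2.08-fold higher in WPF, was the only other member that was called. A gene was called at an unadjusted p under 0.05 with a change of at least 1.5-fold, tested over the 10866 genes whose FPKM averaged 1 or more. Of the 10 members, 8 reached that level, and Cidea and Cidec did not. Of the 8, 2 were called lower (Pnpla3 and Abhd5), 0 were called higher and 6 were not called. Over all tested genes 9.81% were called, 3.98% as lower and 5.83% as higher in KPF. Of the 1066 genes called, 59.4% were higher, against 34.1% when library totals replaced TMM and 30.2% with limma on log2(FPKM + 1). Over all tested genes the median log2 fold change moved from 0.02 to -0.12 with library totals. The median over the 8 members was -0.09, with 4 estimates below and 4 above 0. Without KPF replicate 2 and WPF replicate 4, 3 members were called lower and 1 higher. After adjustment no gene passed 0.05 with edgeR (0 of 10866 genes, 0%), although 1176 genes had an unadjusted p under 0.05. DESeq2 gave 156 genes at an adjusted p under 0.05, and Pnpla3 was among them (adjusted p = 8.28e-05 by DESeq2). Without the filter on low values, edgeR gave 286 such genes and an adjusted p of 0.00536 for Pnpla3.

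**Figure D1:**
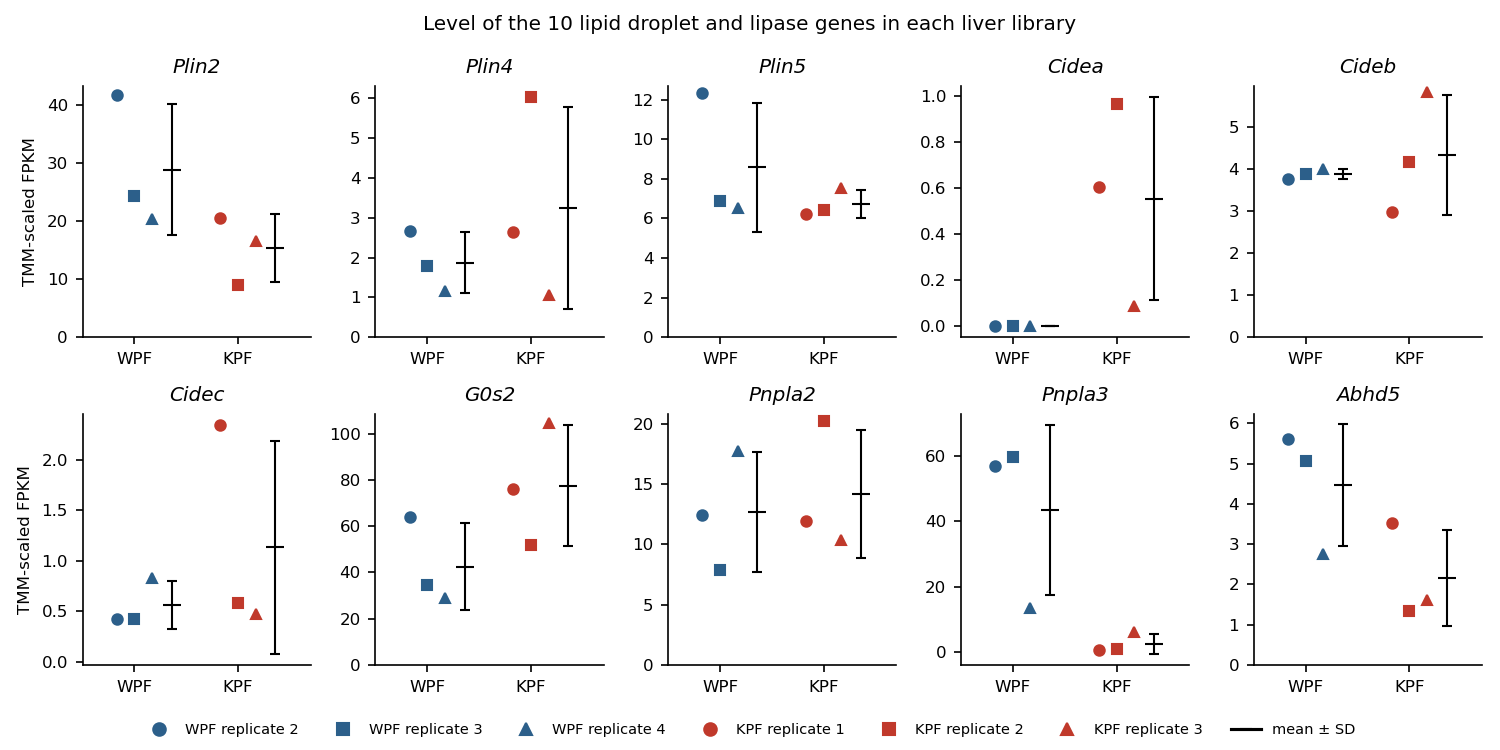
Level of each of the 10 genes (TMM-scaled FPKM, linear axes) in the 3 WPF libraries (blue) and the 3 KPF libraries (red), with a marker shape for each replicate and the mean ± SD beside each group. Of the 8 tested members only Pnpla3 has groups that do not overlap, against 15.7% of all tested genes. Cidea has reads in KPF only.

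The sequences before the start of Pnpla3, Abhd5, Plin2 and G0s2 are shown because these were the 4 tested members with the largest estimated differences. They are RefSeq sequences of build GRCm38.p6, a different build from the GRCm39 of the deposited counts, and run from 250 bases before the start up to the start, with the first 2 transcribed bases added for Plin2. The windows are chr15:84167566-84167815 (+ strand) for Pnpla3, chr9:122351366-122351615 (+ strand) for Abhd5, chr4:86670058-86670309 (- strand) for Plin2 and chr1:193273189-193273438 (- strand) for G0s2. Capitals mark matches on either strand to CACGTG (an E-box, the kind of motif that is paired in ChREBP response elements), AGGTCA (a nuclear receptor element), CCAAT or GGGCGG (a GC box).
Pnpla3: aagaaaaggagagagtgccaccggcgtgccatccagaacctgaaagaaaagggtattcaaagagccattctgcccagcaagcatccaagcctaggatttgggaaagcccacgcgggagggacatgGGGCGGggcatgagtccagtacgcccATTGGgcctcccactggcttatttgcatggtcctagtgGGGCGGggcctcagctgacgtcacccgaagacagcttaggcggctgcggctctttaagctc
Abhd5: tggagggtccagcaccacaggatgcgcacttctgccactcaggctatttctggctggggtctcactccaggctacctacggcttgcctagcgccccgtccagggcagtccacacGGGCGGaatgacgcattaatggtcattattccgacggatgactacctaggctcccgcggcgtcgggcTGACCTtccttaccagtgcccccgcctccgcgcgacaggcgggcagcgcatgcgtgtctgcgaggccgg
Plin2: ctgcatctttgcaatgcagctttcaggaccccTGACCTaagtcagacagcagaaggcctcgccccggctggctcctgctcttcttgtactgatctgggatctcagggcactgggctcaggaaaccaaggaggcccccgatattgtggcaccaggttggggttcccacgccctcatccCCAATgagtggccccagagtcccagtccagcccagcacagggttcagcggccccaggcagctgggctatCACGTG
G0s2: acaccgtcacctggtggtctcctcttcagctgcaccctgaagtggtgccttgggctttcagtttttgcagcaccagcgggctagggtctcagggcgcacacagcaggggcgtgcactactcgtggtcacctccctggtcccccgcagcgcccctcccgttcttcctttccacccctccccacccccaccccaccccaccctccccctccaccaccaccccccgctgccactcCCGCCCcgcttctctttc

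RefSeq windows of 250 bases before and 50 after the start were found for 9 of the 10 members, in 11 windows because Plin5 and Cidec have more than 1. CACGTG was found in 1 of the 11, that of Plin2, where it begins 4 bases before the start, and in 7.15% of all 32851 windows. AGGTCA was in 4 of the 11 (Abhd5, Plin2 and Plin5) against 16.3% of all windows, CCAAT in 4 of the 11 against 37.4%, and GGGCGG in 8 of the 11 against 35.7%. The Pnpla3 window held CCAAT beginning 99 bases before the start and GGGCGG at 125 and 61 bases before it, and neither CACGTG nor AGGTCA. The Abhd5 window held AGGTCA 69 bases before the start, and G0s2 had a GC box alone, 18 bases before it. A match is a string of letters and no binding was measured.

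Pnpla3 (ENSMUSG00000041653, chr15:84052038-84071437, + strand of GRCm39) was at 57.0, 59.7 and 13.4 in WPF replicates 2, 3 and 4 and at 0.811, 0.927 and 6.10 in KPF replicates 1, 2 and 3. The groups did not overlap, as was so for 1 of the 8 tested members and 15.7% of all tested genes. WPF replicate 4 was the low library of its group and KPF replicate 3 the high library of its own, and the gap between those libraries was the smallest. The reads behind these values were 1008, 1298 and 349 in WPF and 13, 16 and 97 in KPF. The means were 43.4 ± 26.0 and 2.61 ± 3.02 (SD, n = 3 each). The log2 fold change was -4.05 (SE 0.92, 95% confidence interval -6.19 to -1.92), a level 16.6-fold higher in WPF than in KPF. The unadjusted p of edgeR was 0.00252 and the adjusted p was 0.415, and the exact two-sided permutation test of the log2 levels gave p = 0.1, the smallest that 3 libraries against 3 allow. The estimate stayed between -5.63 and -2.82 in 17 alternative analyses, and the unadjusted p was under 0.05 in all 17. It was -4.09 without KPF replicate 2 and WPF replicate 4, -5.63 without KPF replicate 3, its high library, and -2.82 without KPF replicates 1 and 2. The genes that overlap Pnpla3 had 8 to 15 reads each over all libraries. In bulk liver RNA, fewer cells of a type and less RNA per cell cannot be told apart. The labels give the replicates as separate samples, and the authors counted them as biological replicates (n = 3). The p-values set the difference between the groups against the spread between these samples.

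Pnpla5, a close relative of Pnpla3 that lies 44.7 kb from it on chromosome 15 with 2 other genes wholly between them, was low in KPF as well. It was at 7.98, 13.2 and 3.39 in WPF replicates 2, 3 and 4 and at 0.444, 0.248 and 1.88 in KPF replicates 1, 2 and 3, so that WPF replicate 4 and KPF replicate 3 again lay closest to the other group. KPF replicates 1 and 2 had 10 and 6 reads of it. Its log2 fold change was -3.26 (SE 0.79, unadjusted p = 0.00376 and adjusted p = 0.430 by edgeR).

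Pnpla2, which encodes the main triglyceride lipase ATGL, was not called. It was at 12.0, 20.2 and 10.3 in KPF replicates 1, 2 and 3 and at 12.4, 7.83 and 17.7 in WPF replicates 2, 3 and 4. KPF replicate 2 and WPF replicate 4 were the high libraries, and the groups overlapped throughout. edgeR put the log2 fold change at 0.16 (SE 0.37, 95% confidence interval -0.70 to 1.02, adjusted p = 0.887), an interval that runs from 0.617-fold to 2.03-fold, so that a change of moderate size in either direction was within the interval. The sign depended on single libraries, with -0.19 without KPF replicate 2 and -0.09 without WPF replicate 3.

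Abhd5, which encodes the activator CGI-58 (ENSMUSG00000032540, chr9:122180673-122210589, + strand of GRCm39), was at 3.52, 1.34 and 1.60 in KPF replicates 1, 2 and 3 and at 5.60, 5.07 and 2.75 in WPF replicates 2, 3 and 4. KPF replicates 2 and 3 were below every WPF library, and KPF replicate 1 lay above WPF replicate 4. The log2 fold change was -1.05 (SE 0.43, 95% confidence interval -2.05 to -0.06), a level 2.08-fold higher in WPF, which was called (unadjusted p = 0.0399 and adjusted p = 0.452 by edgeR). The exact permutation test gave p = 0.2. The call rested on single libraries. It was lost without KPF replicate 2 (-0.81, unadjusted p = 0.106), KPF replicate 3 (-0.88, unadjusted p = 0.116), WPF replicate 2 (-0.86, unadjusted p = 0.123) or WPF replicate 3 (-0.96, unadjusted p = 0.101), while the estimate kept its sign in all 17 alternatives.

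G0s2, which encodes the inhibitor of ATGL (ENSMUSG00000009633, chr1:192954469-192955525, - strand of GRCm39), had the highest level of the 10 genes in KPF. It was at 76.2, 51.9 and 105 in KPF replicates 1, 2 and 3 and at 63.8, 34.6 and 28.8 in WPF replicates 2, 3 and 4. KPF replicates 1 and 3 were above every WPF library, and KPF replicate 2 was below WPF replicate 2. KPF differed from WPF by a log2 fold change of 0.87 (SE 0.38, 95% confidence interval -0.01 to 1.76), or 1.83-fold, and it missed the call with an unadjusted p of 0.0522 (adjusted p = 0.464 by edgeR). It passed the unadjusted threshold in 10 of 17 alternatives, among them without KPF replicate 2 (1.09, unadjusted p = 0.0221) and without WPF replicate 2 (1.29, unadjusted p = 0.0106), and the sign held in all 17. It did not pass without KPF replicate 1 (0.89, unadjusted p = 0.0879), KPF replicate 3 (0.59, unadjusted p = 0.173), WPF replicate 3 (0.74, unadjusted p = 0.152) or WPF replicate 4 (0.65, unadjusted p = 0.152). G0s2 lies within the span of Lamb3 on the opposite strand, which had 384 reads over all libraries, and whether counting used strand was not given in the sources used here.

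**Figure D2:**
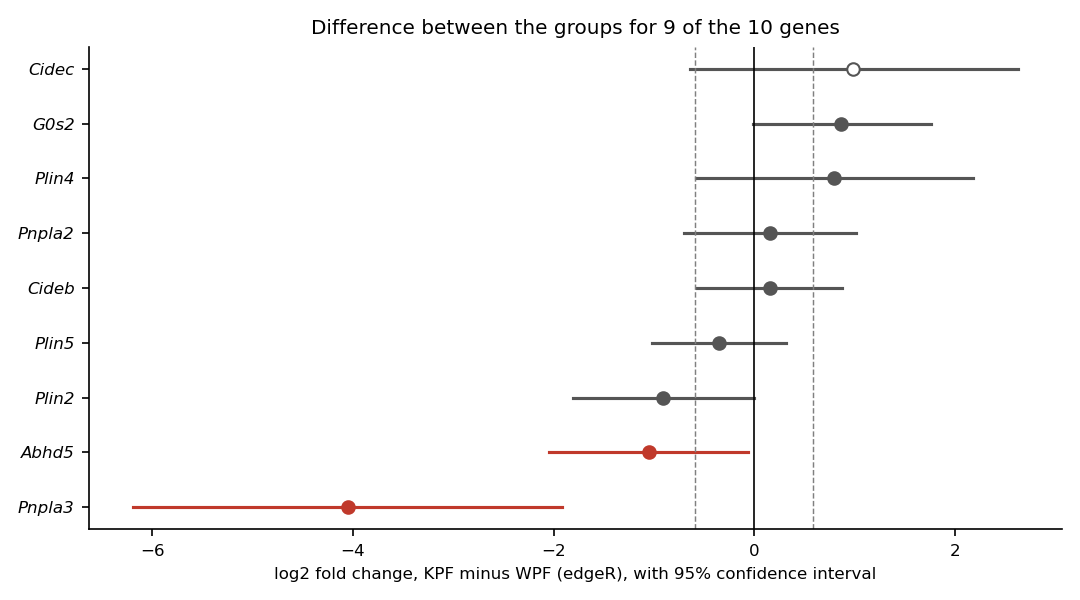
The log2 fold change (KPF minus WPF, from edgeR) of 9 of the 10 genes, drawn as points with 95% confidence intervals, with dashed lines at 1.5-fold either way. Red marks the called genes Pnpla3 (-4.05) and Abhd5 (-1.05), the open point marks Cidec, which was below the FPKM minimum, and Cidea is left out because WPF had no reads of it.

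Ratios of 2 genes within a library do not depend on how libraries are scaled. The FPKM ratio of G0s2 to Pnpla2, the inhibitor to its lipase, was 6.38, 2.57 and 10.1 in KPF replicates 1, 2 and 3 and 5.15, 4.42 and 1.62 in WPF replicates 2, 3 and 4. The groups overlapped, since KPF replicate 2 was below WPF replicates 2 and 3, and the difference of the log2 ratio was 0.72 (exact two-sided permutation test, p = 0.4). The ratio of Pnpla3 to Pnpla2 was 4.60, 7.63 and 0.754 in WPF and 0.0682, 0.0459 and 0.592 in KPF. Here the groups did not overlap, but WPF replicate 4 and KPF replicate 3 came close. The difference of the log2 ratio (KPF minus WPF) was -4.60, a ratio 24.3-fold higher in WPF (exact two-sided permutation test, p = 0.1). Its size rested on single libraries, with -3.89 without KPF replicate 2, -3.92 without WPF replicate 3, -5.73 without KPF replicate 3 and -5.59 without WPF replicate 4. As a share of the sum of both lipases, Pnpla3 made up 82.2%, 88.4% and 43.0% in WPF replicates 2, 3 and 4 and 6.35%, 4.39% and 37.2% in KPF replicates 1, 2 and 3. Over the 4 ratios computed here, that of Cidec to Cideb and that of Plin4 to Plin2 included, no exact p was below 0.1, and none could be.

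**Figure D3:**
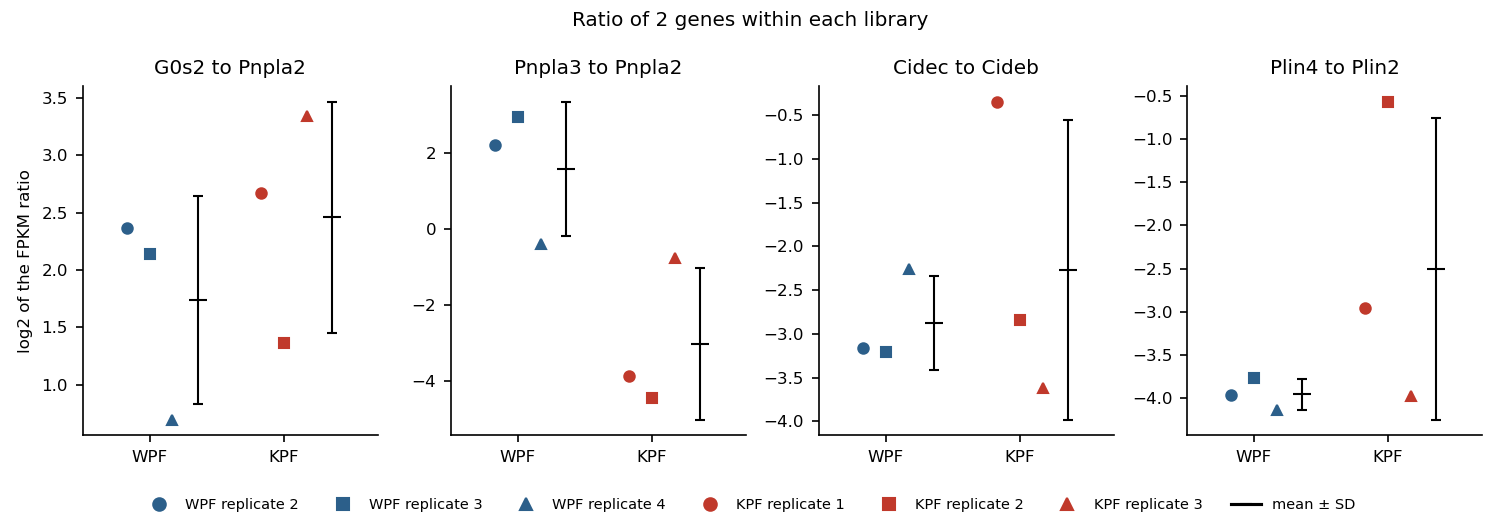
The log2 of the FPKM ratio of 2 genes within each library, for WPF (blue) and KPF (red), with the mean ± SD beside each group. The ratio of Pnpla3 to Pnpla2 separates the groups, and the other 3 ratios overlap.

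Of the 3 perilipins among the members, Plin2, the main droplet coat protein of hepatocytes, had the highest level. It made up 72.7% to 73.7% of the sum of these 3 in the WPF libraries. In KPF replicates 1, 2 and 3 it made up 69.8%, 41.9% and 66.0%. It was at 20.5, 8.98 and 16.6 in KPF replicates 1, 2 and 3 and at 41.6, 24.3 and 20.4 in WPF replicates 2, 3 and 4. KPF replicates 2 and 3 were below every WPF library, and KPF replicate 1 and WPF replicate 4 were almost level. On the log2 scale KPF minus WPF was -0.91 (SE 0.39, 95% confidence interval -1.81 to 0.00), a level 1.87-fold higher in WPF, and with an unadjusted p of 0.0506 (adjusted p = 0.462 by edgeR) it was not called. It passed the unadjusted threshold in 10 of 17 alternatives, without KPF replicate 1 (-1.17, unadjusted p = 0.0323) and without WPF replicate 4 (-1.11, unadjusted p = 0.0317) among them, but not without KPF replicate 2 (-0.64, unadjusted p = 0.119), KPF replicate 3 (-0.97, unadjusted p = 0.0834), WPF replicate 2 (-0.55, unadjusted p = 0.201) or WPF replicate 3 (-1.02, unadjusted p = 0.0642).

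Plin5, which tethers droplets to mitochondria and is known from oxidative tissues, lies 1.8 kb from Plin4 on chromosome 17 with no gene wholly between them. It was at 6.24, 6.40 and 7.51 in KPF replicates 1, 2 and 3 and at 12.3, 6.89 and 6.51 in WPF replicates 2, 3 and 4. Only WPF replicate 2 stood apart, and the other 5 libraries lay within a narrow range. The log2 fold change was -0.35 (SE 0.29, 95% confidence interval -1.02 to 0.32, adjusted p = 0.679 by edgeR), and without WPF replicate 2 it was 0.00.

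Plin4, a perilipin best known from adipocytes and muscle, was at 2.63, 6.04 and 1.06 in KPF replicates 1, 2 and 3 and at 2.68, 1.78 and 1.16 in WPF replicates 2, 3 and 4. KPF replicate 2 alone was above the range of WPF, and it was also the library with the highest summed adipocyte and skeletal muscle markers. The estimated log2 fold change was 0.80 (SE 0.59, 95% confidence interval -0.58 to 2.18, adjusted p = 0.643 by edgeR). Without KPF replicate 2 it was -0.02, without KPF replicates 1 and 2 it was -0.81, and without KPF replicate 3 it was 1.21 (unadjusted p = 0.0356). Plin4 made up 28.2% of the perilipin sum in KPF replicate 2, 8.96% in KPF replicate 1 and 4.13% to 5.40% in the other 4 libraries. The FPKM ratio of Plin4 to Plin2 was 0.129, 0.672 and 0.0638 in KPF and 0.0643, 0.0733 and 0.0569 in WPF (exact two-sided permutation test, p = 0.3). What part the adipocyte or muscle transcripts had in this difference was not tested. The end of Plin4 overlaps Hdgfl2 on the opposite strand, which had 8293 reads over all libraries. The shared stretch runs only from position 56407591 to 56407607, a small part of the 6350 exonic bases of Plin4.

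The CIDE genes were low in these livers. Cideb, the family member that takes part in loading very-low-density lipoprotein with lipid, was at 2.98, 4.16 and 5.82 in KPF replicates 1, 2 and 3 and at 3.77, 3.88 and 3.99 in WPF replicates 2, 3 and 4. The WPF libraries lay close together, inside the range of KPF, with a coefficient of variation of 2.87% against 33.0% in KPF. By edgeR the log2 fold change was 0.16 (SE 0.31, 95% confidence interval -0.57 to 0.88, adjusted p = 0.867). Between 46 and 100 reads per library were counted on Cideb, which overlaps Nop9 on the opposite strand, a gene with 1621 reads over all libraries.

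Cidec, also called Fsp27, enlarges droplets in adipocytes and in fatty liver. It was at 2.34, 0.580 and 0.472 in KPF replicates 1, 2 and 3 and at 0.425, 0.422 and 0.831 in WPF replicates 2, 3 and 4. KPF replicate 1, with 45 reads, was above every other library, which had 9 to 26 reads. The log2 fold change was 0.99 (SE 0.70, 95% confidence interval -0.64 to 2.63, unadjusted p = 0.197 by edgeR), and without KPF replicate 1 it was -0.10. The FPKM ratio of Cidec to Cideb was 0.785, 0.140 and 0.0812 in KPF and 0.112, 0.108 and 0.209 in WPF (exact two-sided permutation test, p = 0.8). The summed adipocyte markers were at 18.0 in KPF replicate 1, where Cidec was the highest, and at 37.0 in KPF replicate 2. What part adipocyte transcripts had in the reads of Cidec was not tested.

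Cidea, a droplet gene of brown adipocytes that is also known from fatty liver, had 7, 12 and 1 reads in KPF replicates 1, 2 and 3 and 0 reads in each WPF library. Set against a floor of 3 reads over the WPF group, the 20 KPF reads were at least 8.87-fold higher. It was below the FPKM minimum, and the single read of KPF replicate 3 is within what counting allows for WPF. Nearly all of its reads were in the libraries with raised adipocyte marker sums. Plin1, the perilipin of adipocytes, had 9, 12 and 1 reads in KPF and 0, 0 and 1 in WPF. Cidea is itself 1 of the 4 brown adipocyte markers listed here. Of the others, Ucp1 had 1, 6 and 0 reads in KPF and 0, 0 and 2 in WPF. Dio2 had 4, 3 and 0 in KPF and 0 in each WPF library. Elovl3 had reads in every library, with 29, 17 and 3 in KPF and 24, 5 and 6 in WPF. What part adipocyte transcripts had in the reads of Cidea was not tested.

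**Figure D4:**
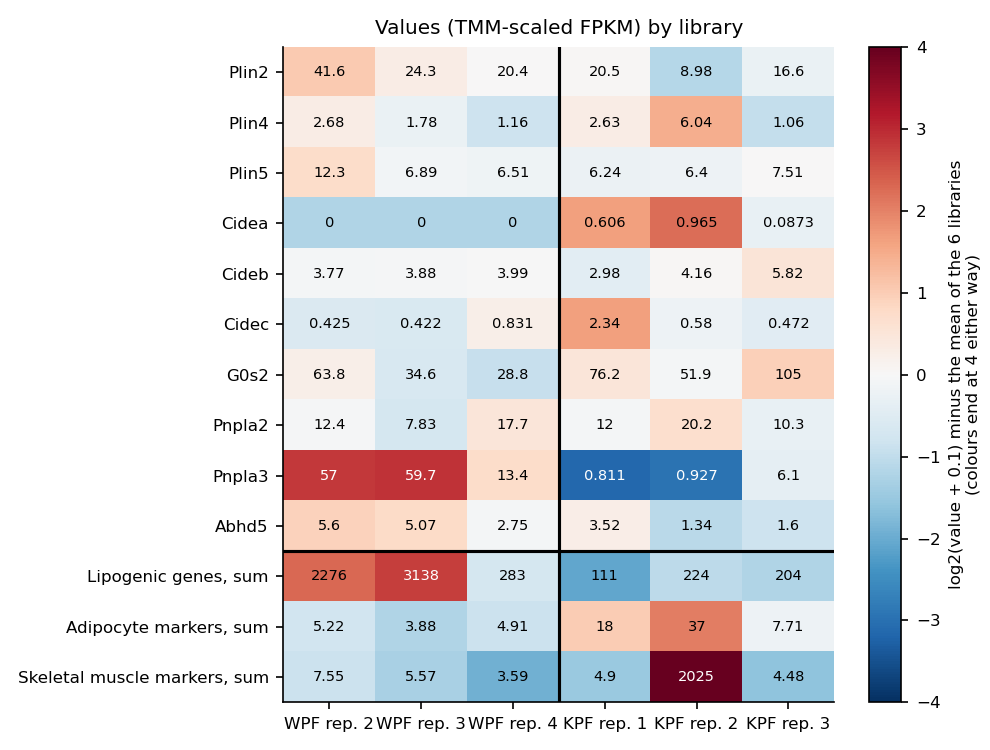
Values of the 10 genes and of 3 summed lists (TMM-scaled FPKM, printed in the cells) in each library, coloured by log2(value + 0.1) minus the mean of the 6 libraries. Pnpla3 follows the lipogenic sum in being lowest in KPF and intermediate in WPF replicate 4, and Cidea and Plin4 are highest in KPF replicate 2, where the adipocyte and skeletal muscle sums are highest.

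In order of level, WPF livers had Pnpla3 (43.4) and G0s2 (42.4) first, then Plin2 (28.8), Pnpla2 (12.7), Plin5 (8.58), Abhd5 (4.47), Cideb (3.88), Plin4 (1.87), Cidec (0.559) and Cidea. The ranges of Pnpla3, G0s2 and Plin2 overlapped from each to the next, as did those of Pnpla2 and Plin5 and of Abhd5 and Cideb. In KPF the order began with G0s2 (77.5), which did not overlap with the next gene, Plin2 (15.4), and Pnpla3 (2.61) was the seventh, between Plin4 (3.24) and Abhd5 (2.15), with overlapping ranges. Plin2 and Pnpla2 (14.2) were not separable in KPF, whereas they did not overlap in WPF.

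Of 15 other genes of the droplet coat and of droplet formation, 13 were tested, with a median log2 fold change of -0.13. Of the 13, 2 were called lower, 1 was called higher and 10 were not called. All tested genes gave 3.98% called lower and 5.83% called higher. Groups did not overlap for 1 of the 13, against 15.7% of all tested genes. Plin3, the perilipin that is found on nascent droplets and in the cytosol, was at 2.70, 4.43 and 3.68 in KPF replicates 1, 2 and 3 and at 5.57, 6.96 and 6.08 in WPF replicates 2, 3 and 4. The groups did not overlap, and the log2 fold change was -0.78 (SE 0.24, unadjusted p = 0.0112 and adjusted p = 0.430 by edgeR), with a p under 0.05 in 16 of 17 alternatives. Acsl3, an acyl-CoA synthetase of growing droplets, had a log2 fold change of -1.09 (unadjusted p = 0.0499), with 1222 reads in WPF replicate 3 and 186 to 430 in the other 5 libraries, and passed in 8 of 17 alternatives. Fitm1, which partitions triglyceride into droplets and is known mainly from skeletal muscle, was 3.02-fold higher in KPF (unadjusted p = 0.0488). Its highest library was KPF replicate 2 at 20.7, the library with skeletal muscle transcripts, and without that library the log2 fold change was 0.72 (unadjusted p = 0.253). Plin1 and Pcyt1a were below the FPKM minimum.

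Of 17 other neutral lipid hydrolases, 16 were tested, with a median log2 fold change of 0.05. Of the 16, 3 were called lower, 3 were called higher and 10 were not called. The shares over all tested genes were 3.98% lower and 5.83% higher. Groups did not overlap for 5 of the 16, against 15.7% of all tested genes. Beside Pnpla5, the lower genes were Ddhd2 (-1.28, unadjusted p = 0.0235), a triglyceride hydrolase known from brain, and Lipa (-0.80, unadjusted p = 0.0326), the lysosomal acid lipase. The higher genes were Ces3a, Abhd6 and Lipe. Ces3a, a carboxylesterase of the endoplasmic reticulum, was at 354, 492 and 363 in KPF and 90.5, 89.9 and 216 in WPF, and the groups did not overlap. Its log2 fold change was 1.61 (SE 0.41, unadjusted p = 0.0051 and adjusted p = 0.430 by edgeR). Abhd6, a monoacylglycerol lipase, was at 23.5, 25.4 and 19.6 in KPF and 12.8, 10.7 and 13.3 in WPF, again without overlap, with a log2 fold change of 0.90 (SE 0.20, unadjusted p = 0.00251 and adjusted p = 0.415). Lipe, the hormone-sensitive lipase that is also among the adipocyte markers, had a log2 fold change of 0.89 (unadjusted p = 0.0326 by edgeR). Without KPF replicates 1 and 2 it was 0.36. What part adipocyte transcripts had in this difference was not tested. Pnpla5, Ces3a and Abhd6 kept an unadjusted p under 0.05 in all 17 alternatives, Ddhd2 in 13, Lipa in 12 and Lipe in 9. Pnpla1 had no reads.

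**Figure D5:**
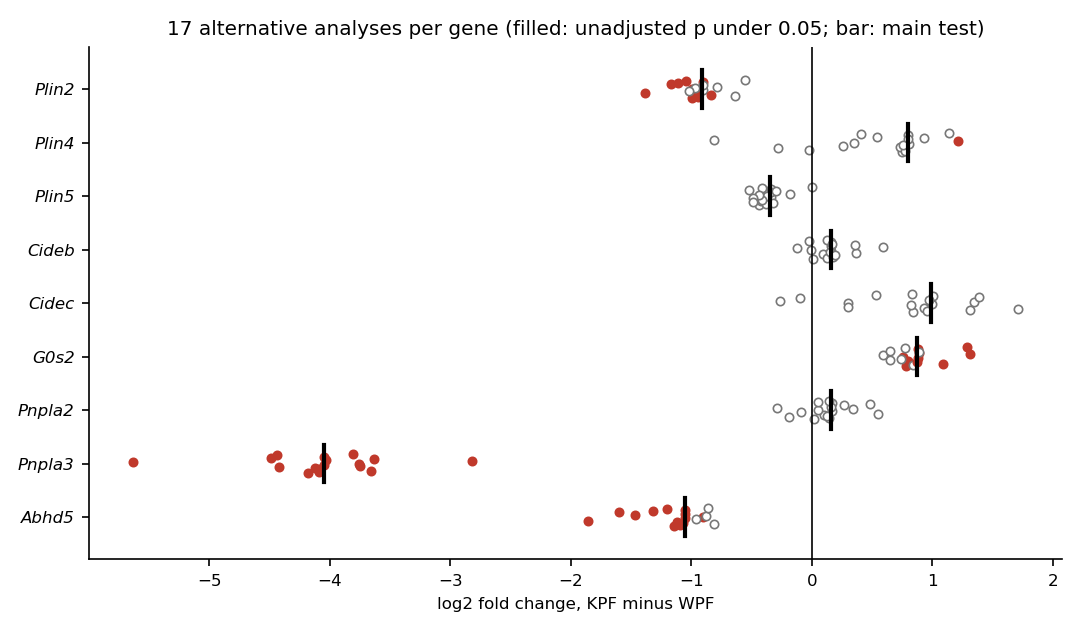
The log2 fold change (KPF minus WPF) of 9 genes under 17 alternative analyses (points, filled where the unadjusted p was under 0.05) and in the main test (black bars). Pnpla3 stays between -5.63 and -2.82 with every point filled, Plin2, G0s2 and Abhd5 keep their sign with part of the points filled, and Plin4, Cideb, Cidec and Pnpla2 spread over both sides of 0.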

How the data were processed

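Poly(A) RNA from liver (3 KPF and 3 WPF dams) was sequenced with paired-end reads. The submitters' processing notes name cutadapt 1.9.1, HISAT2 2.2.1, HTSeq 0.6.1, DESeq2 and the build GRCm39, and neither the counting mode nor the use of strand was given in the sources used here. The authors deposited, per gene, raw read counts and FPKM values, which equal the counts divided by exonic length and library total within 0.01 in 100% of values. The authors' gene lengths and coordinates were taken from the same table. Gene symbols were matched by Ensembl ID (52073 of 56691).

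Counts were TMM-scaled and compared by edgeR 4.0.16 (quasi-likelihood test, R 4.3.3) over the 10866 genes whose FPKM averaged 1 or more, with Benjamini-Hochberg adjustment. Calls needed both an unadjusted p under 0.05 and a 1.5-fold or larger change. Genes under the minimum were fitted without an adjusted p. Confidence intervals (95%) come from the fit. Exact two-sided permutation tests were run on log2(level + 0.1) and on log2 FPKM ratios. limma 3.58.1, DESeq2 1.42.0 and other scalings, filters and sample sets gave 17 alternatives, 2 of which were chosen after seeing the data. The tests were checked on simulated counts. Replicate numbers 2 and 3 occur in both groups, and correlations of their deviations from the group means of 0.0448 and -0.0168 gave no sign of pairing. No 2 libraries of a group agreed within sampling noise (chi-square of 39.65 or more per gene).

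The members and all gene lists were chosen with earlier results of these data known. The text names all members, Mlxipl, and from each other list the called genes or otherwise up to 4 with the smallest p, and marker lists are given by sums and their defining genes. The fitted intervals take in the spread between libraries, whereas the floor of reads covers the counting error of WPF only, and reads are not independent molecules.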

Additional observations from a re-analysis of the deposited data

How the results depend on the processing

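Over 17 alternatives, Pnpla3 (always with p under 0.05), Abhd5, Plin2 and G0s2 kept their sign. The sign of Cidea could not change, since every WPF library had 0 reads of it and every KPF library had some. Its unadjusted p was under 0.05 in 13 of the 17. The number of libraries and genes with few reads (Cidea, Cidec, Cideb) limit the precision. With the replicate number as a block, although the numbers gave no sign of pairing samples, Pnpla3 was at -4.42, Abhd5 at -1.86, Plin2 at -1.38 (unadjusted p = 0.0313) and G0s2 at 0.65, 680 genes were called higher and 552 lower, 5 other hydrolases were called higher, and the difference of the log2 Cidec to Cideb ratio was -0.05. Estimates that changed sign were Plin4 (-0.02 without KPF replicate 2, -0.28 without KPF replicate 2 and WPF replicate 4, -0.81 without KPF replicates 1 and 2, up to 1.21 with 1 library left out), Plin5 (0 without WPF replicate 2, otherwise down to -0.52), Cideb (-0.01 and -0.02 with limma at pseudocounts of 1 and 0.1, -0.12 without KPF replicate 3, up to 0.36 with 1 library left out and 0.59 without KPF replicates 1 and 2), Cidec (-0.10 without KPF replicate 1, -0.26 without KPF replicates 1 and 2, up to 1.39 with 1 library left out), Pnpla2 (-0.19 without KPF replicate 2, -0.09 without WPF replicate 3, -0.29 without KPF replicates 1 and 2, up to 0.48 with 1 library left out) and the log2 Cidec to Cideb ratio (-0.36 without KPF replicate 1, 1.28 at most). Leaving out KPF replicates 1 and 2 leaves 1 KPF library, which is assumed to vary like the WPF libraries.

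Over all genes, 633 were called higher and 433 lower. These were 370 and 715 with library totals, 1576 and 910 with no filter, 254 and 203 at a minimum FPKM of 5, 238 higher with limma on log2(FPKM + 1), 257 and 679 with limma on log2(FPKM + 0.1), and 324 and 252 without KPF replicates 1 and 2. Leaving out 1 library gave 328 to 922 higher and 245 to 714 lower, with 363 and 328 higher without WPF replicates 2 and 3, and 278, 714 and 245 lower without KPF replicate 1, KPF replicate 3 and WPF replicate 3. At an adjusted p under 0.05 there were 156 genes with DESeq2, 286 with no filter, 1 with limma on log2(FPKM + 0.1), 33 without KPF replicate 2 and WPF replicate 4, and 0 to 5 when 1 library was left out (5 without WPF replicate 4). Members called higher rose from 0 to 1 with library totals, DESeq2 or its size factors, the FPKM minimum of 5, limma on log2(FPKM + 1) and both pairs of libraries left out, to 2 with no filter, and lay between 0 and 1 when 1 library was left out (1 without KPF replicate 2, KPF replicate 3 or WPF replicate 2). Members called lower were 1 at the FPKM minimum of 5, where Abhd5 was not tested, and 1 to 3 when 1 library was left out (1 without KPF replicate 2, KPF replicate 3, WPF replicate 2 or WPF replicate 3). Other droplet genes called higher were 0 with library totals, the FPKM minimum of 5, both limma fits and KPF replicates 1 and 2 left out, and 2 with no filter, and those called lower were 1 with DESeq2 size factors and both limma fits and 0 at the FPKM minimum of 5. With 1 library left out these were 0 to 2 (0 without KPF replicate 2, WPF replicate 2 or WPF replicate 3, 2 without KPF replicate 3) and 1 to 2 (1 without KPF replicate 1, KPF replicate 2, WPF replicate 2 or WPF replicate 3). Other hydrolases called lower were 1 at the FPKM minimum of 5 and without KPF replicates 1 and 2, and 1 to 3 with 1 library left out (1 without KPF replicate 1 or WPF replicate 2). The causes were not tested, apart from the fewer genes tested at the higher minimum.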

Other observations

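Of the 7 tested regulators of droplet genes, 2 (Mlxipl and Srebf1) had groups that did not overlap, against 15.7% of all tested genes. The regulators did not pass the test, with 7 of 8 tested, 0 called and a median log2 fold change of -0.01. Those with the smallest p were Srebf1 (-1.03, unadjusted p = 0.0928), the sterol and insulin responsive factor of lipogenesis, Nr1h3 (0.48, unadjusted p = 0.111), which encodes LXR alpha, Mlxipl itself and Rxra (0.12, unadjusted p = 0.706). All 9 lipogenic reference genes were called lower, against 3.98% of all tested genes, with a median of -3.08, and 7 of the 9 had groups that did not overlap, against 15.7% of all tested genes. Pnpla3 lay within the range of these 9 genes, between Scd1 (-4.74) and Thrsp (-2.25). Of 12 genes known as targets of PPAR alpha, 0 were called, with 6 estimates below and 6 above 0, and the smallest p were those of Acot1 (1.37, unadjusted p = 0.0983) and Fgf21 (-2.27, unadjusted p = 0.143).

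Ces1d, a triacylglycerol hydrolase of hepatocytes, was chosen after its values were seen. It was at 98.8, 282 and 60.0 in KPF replicates 1, 2 and 3 and at 46.6, 39.9 and 234 in WPF replicates 2, 3 and 4, so that its high libraries, KPF replicate 2 and WPF replicate 4, were those of Pnpla2. Its log2 fold change was 0.46 (SE 0.81, adjusted p = 0.846 by edgeR).

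The marker sums of other cell types were 81.1 to 117 in KPF and 86.3 to 174 in WPF over 8 Kupffer cell and macrophage markers and 26.7 to 27.9 against 23.2 to 25.7 over 7 sinusoidal endothelial markers. The 7 stellate cell and fibroblast markers summed to 26.4 to 53.4 in KPF and 18.6 to 24.5 in WPF. Of these 7, 3 were called higher, against 5.83% of all tested genes. Of the 7 sinusoidal endothelial markers 1 was called higher (Pecam1), and of the 8 Kupffer cell and macrophage markers 0 were. The 5 mesothelium markers summed to 1.86 to 6.30 in KPF against 0.999 to 3.04 in WPF, and the 5 cholangiocyte markers to 1.92 to 5.22 against 1.62 to 3.30. The 4 brown adipocyte markers, Cidea included, summed to 0.235 to 2.14 in KPF against 0.180 to 1.06 in WPF. The 8 hepatocyte markers summed to 39401 to 52786 in KPF against 50508 to 84805 in WPF.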
